A study of Mus musculus with 9 samples.

Results

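Hepatic lineage transcription factors are represented here by 8 genes, Hnf4a, Foxa1, Foxa2, Foxa3, Cebpa, Onecut1, Nr1h4 and Prox1, taken by name as regulators of liver epithelial fate. They are 8 of the 19938 genes measured on 9 mouse whole-transcript arrays, which fall into 3 groups of 3. These genes and the lists read beside them were chosen with earlier results of these data known. For each gene the deposited probe set annotated with that gene alone was read, and each of the 8 had 1 such probe set. Values are log2 expression, so that a difference of 1 means a 2-fold difference in signal.

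The AS lines are 3 hepatic angiosarcoma cell lines derived independently of each other, labelled Notch1 knockout on a C57Bl/6 background. Angiosarcoma is a cancer of vessel-lining cells, and the lines were started from endothelial cells isolated out of knockout livers with a visible tumour. Long-term culture then selected cells of unusual growth capacity until the population was uniform. The KO livers come from 3 MxCre Notch1 lox/lox mice and the WT livers from 3 Notch1 lox/lox mice, both C57Bl/6. MxCre is a recombinase gene whose promoter answers to interferon and which therefore acts in many cell types, liver cells and blood cells among them. All 6 liver donors received 300 µg of polyinosinic-polycytidylic acid, a double-stranded RNA mimic that induces interferon, on days 0, 3 and 6 from 4 weeks of age. The loxP-flanked allele and the injections are thus shared by KO and WT livers and MxCre is not, so that Cre activity and the deletion cannot be told apart. Age at collection is not given in the sources used here.

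In liver, these factors form a network in which many members bind the control regions of each other and of the genes for plasma proteins, bile acid transport and intermediary metabolism. HNF4A and the bile acid receptor FXR, encoded by Nr1h4, are nuclear receptors, the FOXA proteins open compacted chromatin, C/EBPα is a leucine zipper factor, and ONECUT1 and PROX1 bind DNA through homeodomains. Hepatocytes are the cells best known for carrying the whole network, bile duct cells carry parts of it, and PROX1 is also the defining factor of lymphatic endothelium.

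Several features of the arrays touch every value given here. Notch1 averaged 8.37 ± 0.47 in KO livers and 11.47 ± 0.39 in WT livers (SD, n = 3 each), without overlap, at an adjusted p of 0.0995 in limma and an exact 2-sided permutation p of 0.1, the smallest that 3 against 3 arrays allow. Without KO liver 2 the difference was -3.29 at an adjusted p of 0.0180. The mean of 31 hepatocyte genes was 9.92, 12.28 and 8.67 in KO livers 1, 2 and 3, against 10.98, 12.12 and 12.13 in WT livers 1, 2 and 3. KO livers 1 and 3 and WT liver 1 were the livers poorest in hepatocyte transcripts, and in such bulk samples fewer cells of a type and less RNA per cell cannot be told apart. The Y-linked gene Eif2s3y was at 8.66 in KO liver 3 and at most at 4.06 on the other 8 arrays, while the labels give no sex, and it was chosen after its values were seen. The extraction protocol names a material abbreviated PHH without explaining it, so that the labels do not settle whether whole liver was extracted. The 18 sinusoidal endothelial genes averaged 12.11, 12.07 and 12.27 in KO livers 1, 2 and 3. In WT livers 1, 2 and 3 they averaged 12.14, 11.89 and 11.88. This mean lay above that of the hepatocyte genes in KO livers 1 and 3 and WT liver 1. Means of different lists do not measure shares of cells, and the make-up of the liver samples was not tested.

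The lines did not show the endothelial markers of their label. The mean of 22 pan-endothelial genes was 6.31, 6.52 and 6.41 in AS lines 1, 2 and 3, against 10.94 to 11.47 in KO livers and 10.97 to 11.10 in WT livers. All 22 genes fell in the lines against both liver groups. The VE-cadherin gene Cdh5, a defining junction protein of endothelium, was at 5.47, 5.66 and 5.45 in the lines, against 13.00, 12.72 and 13.00 in KO livers and 12.91, 12.72 and 12.73 in WT livers. Krt19, a keratin of bile duct and progenitor cells, was at 11.82, 12.18 and 11.93 in the lines, against 5.67, 5.72 and 5.83 in KO livers and 6.76, 6.42 and 6.19 in WT livers. They are called AS lines by their label, and no other cell type is assigned to them.

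Most of the hepatic factors gave a signal in the lines at the level of liver or above it. The lines are cultured tumour cells and the livers hold several cell types. Culture, tumour state and cell composition thus cannot be told apart between lines and livers. A higher or lower value here refers to signal in the RNA of a sample, not to a change per cell. Foxa2 and Nr1h4 stood above all 6 livers in each of the 3 lines, and Hnf4a did so in 2 of them. Cebpa stood below all 6 livers in each of the 3 lines. Foxa1, Foxa3, Onecut1 and Prox1 lay largely within the range of the livers, with 1 line above it for Foxa1 and 1 for Prox1. By the percentage of genes at or below it, Foxa1 ranked at 38.6 to 55.4 in the livers and Onecut1 at 40.3 to 64.0. Foxa2 ranked at 47.25 to 58.8 in the livers and at 76.7 to 81.9 in the lines. Ranks near the middle of an array, without a detection call, do not show signal above background, so that liver level need not mean expression.

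**Figure D1:**
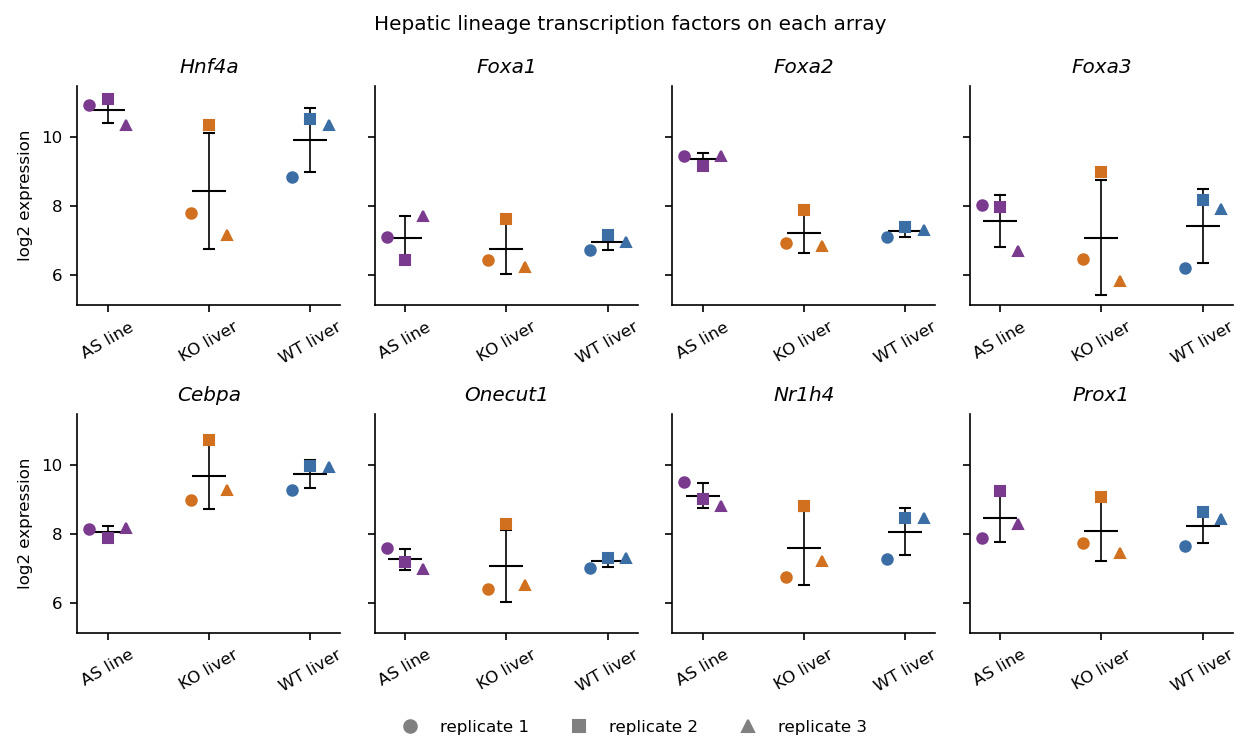
Log2 expression of the 8 factors (vertical axes, 1 panel per gene) in AS lines, KO livers and WT livers; each point is 1 array, its shape gives the replicate number, horizontal bars are group means and whiskers ± 1 SD (n = 3). Foxa2 and Nr1h4 lie above every liver and Cebpa below every liver in the 3 lines, while KO liver 2 is the highest KO liver in all 8 panels.

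Across the 8 genes, limma called 1 higher and 0 lower in AS lines against KO livers at an adjusted p under 0.05, where 21.4% of all genes were called, 11.4% higher and 10.1% lower. Against WT livers it called 1 higher and 1 lower, where 28.7% of all genes were called, 17.6% higher and 11.1% lower. The groups did not overlap for 3 of the 8 in both comparisons, 2 above and 1 below. Over all genes, 40.9% did not overlap with KO livers, 24.1% above and 16.7% below, and 47.8% did not overlap with WT livers, 28.3% above and 19.5% below. The log2 fold change was positive for 7 of the 8 and negative for 1 in both comparisons. Over all genes it was positive for 60.9% and negative for 39.1% against KO livers, and positive for 53.3% and negative for 46.7% against WT livers. The share of factors called was thus close to that of all genes, or below it. Without KO liver 1 or KO liver 3 the genes called against KO livers numbered 2281 and 2310 rather than 4275, and without WT liver 2 or WT liver 3 those against WT livers numbered 3397 and 3556 rather than 5715. With 75th percentile scaling the split against WT livers was 2476 higher and 2884 lower rather than 3506 and 2209. Both comparisons share the AS arrays and are not independent of each other. The median log2 fold change of the 8 was 0.43 over KO livers and 0.19 over WT livers, beside 0.05 and 0.02 for all genes.

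Foxa2 rose in the lines against both liver groups. It encodes the forkhead factor that opens chromatin in early endoderm and later acts in hepatocytes and bile duct cells. It stood at 9.46, 9.16 and 9.46 in AS lines 1, 2 and 3, against 6.94, 7.89 and 6.84 in KO livers and 7.10, 7.41 and 7.31 in WT livers. The lowest line lay well above the highest liver, and the lines spread over only 0.30 log2 units. The difference was 2.14 over KO livers (SE 0.306, adjusted p = 0.00794), a 4.39-fold higher signal, and 2.09 over WT livers (SE 0.134, adjusted p = 0.000311), a 4.26-fold higher signal. Foxa2 passed under each of the 13 alternative settings tried in either comparison, at an adjusted p between 0.000802 and 0.0379 over KO livers and between 0.000136 and 0.00670 over WT livers.

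Neither Foxa1 nor Foxa3 passed the threshold against either liver group. Foxa1, which acts with Foxa2 in liver specification, was at 7.10, 6.44 and 7.71 in AS lines 1, 2 and 3, against 6.44, 7.63 and 6.25 in KO livers and 6.73, 7.17 and 6.95 in WT livers. Its groups overlapped, with line 3 the highest array and line 2 among the lowest. The difference was 0.31 over KO livers (SE 0.490, adjusted p = 0.718) and 0.13 over WT livers (SE 0.333, adjusted p = 0.805). Foxa3, the FOXA gene most typical of mature hepatocytes, was at 8.05, 7.97 and 6.71 in the lines, against 6.46, 8.98 and 5.83 in KO livers and 6.20, 8.17 and 7.92 in WT livers. Lines 1 and 2 sat among the livers rich in hepatocyte genes and line 3 between those and the poor ones. The difference of means was 0.48 over KO livers (SE 0.910, adjusted p = 0.767) and 0.14 over WT livers (SE 0.638, adjusted p = 0.895). That Foxa2 differed more than Foxa1 or Foxa3 was not tested.

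Among the other forkhead genes, 1 of 36 was called higher and 3 lower in lines against KO livers, and 2 higher and 3 lower against WT livers, at medians of 0.03 and 0.03. The lower calls against KO livers numbered 0 without KO liver 1 and 1 without KO liver 2 or KO liver 3, and 2 were called higher without AS line 1. Against WT livers 1 was called lower without WT liver 2. Foxp4, a forkhead repressor of foregut-derived epithelia, was at 9.59, 9.02 and 9.80 in the lines, against 7.92, 7.77 and 7.30 in KO livers and 7.61, 8.07 and 8.07 in WT livers. The lines lay above all livers, by 1.81 over KO livers (SE 0.263, adjusted p = 0.00833) and 1.55 over WT livers (SE 0.244, adjusted p = 0.00704).

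Cebpa went the other way. It encodes C/EBPα, which holds hepatocytes in a non-dividing state and drives genes of glucose, lipid and nitrogen metabolism. It stood at 8.15, 7.89 and 8.16 in AS lines 1, 2 and 3, against 8.99, 10.73 and 9.27 in KO livers and 9.28, 9.98 and 9.95 in WT livers. Every line lay below every liver, and the lines were the tightest group, with a range of 0.28 log2 units. Cebpa fell against WT livers by 1.67 on the log2 scale (SE 0.218, adjusted p = 0.00362), to 31.4% of their mean signal. Against KO livers the difference was -1.60 (SE 0.473), at an adjusted p of 0.0706 that missed the threshold. Without KO liver 2 it was -1.07 at an adjusted p of 0.0148. It also passed with all 9 arrays in one fit (adjusted p = 0.0277), after dim genes were dropped (0.0310) and under 75th percentile scaling (0.0478). The CEBPA target genes described below include genes of myeloid blood cells. The 15 Kupffer cell genes averaged 6.25 to 6.41 in the lines, against 11.12 to 11.76 in KO livers and 11.06 to 11.68 in WT livers. The part of such cells in the level of Cebpa was not tested.

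Of 5 other CEBP genes, 0 were called higher and 1 lower in lines against KO livers, and 0 higher and 2 lower against WT livers. Cebpd, a family member induced in the acute phase response, was at 6.29, 7.31 and 8.25 in the lines, against 10.08, 9.64 and 10.13 in KO livers and 9.66, 9.57 and 9.57 in WT livers. It fell by 2.67 on the log2 scale against KO livers (SE 0.507, adjusted p = 0.0191) and fell by 2.32 against WT livers (SE 0.479, adjusted p = 0.0176). Its call against KO livers was lost without KO liver 1, KO liver 3 or AS line 2 (adjusted p = 0.0779, 0.0763 and 0.0551), and its call against WT livers without any 1 of the WT livers (0.0641, 0.0651 and 0.0640).

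The promoters of 3 factors are shown because Foxa2 and Cebpa are the members called, in opposite directions, and Hnf4a has the longest list of target genes described here. Each sequence is the RefSeq window of GRCm38.p6, 300 bases around an annotated start, written 5′ to 3′ on the strand of the gene. Capitals mark a match to the ONECUT motif ATTGAT on either strand. The Foxa2 window, the most upstream of 3 annotated starts, lies at chr2:148046920-148047219 on the minus strand, the Hnf4a window at chr2:163506607-163506906 on the plus strand, upstream of its other annotated start, and the Cebpa window at chr7:35119043-35119342 on the plus strand.
Foxa2: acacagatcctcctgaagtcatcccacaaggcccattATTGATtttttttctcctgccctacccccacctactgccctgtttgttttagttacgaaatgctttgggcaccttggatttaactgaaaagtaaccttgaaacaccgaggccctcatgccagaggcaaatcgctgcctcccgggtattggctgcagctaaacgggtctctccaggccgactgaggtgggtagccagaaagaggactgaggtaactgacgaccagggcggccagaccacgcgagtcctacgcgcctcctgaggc
Hnf4a: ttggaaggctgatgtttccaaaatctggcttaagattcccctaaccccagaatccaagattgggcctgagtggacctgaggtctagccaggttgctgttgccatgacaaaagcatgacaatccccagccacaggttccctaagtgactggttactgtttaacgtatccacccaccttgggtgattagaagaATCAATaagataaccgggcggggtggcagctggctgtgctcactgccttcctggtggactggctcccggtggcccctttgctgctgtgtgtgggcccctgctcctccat
Cebpa: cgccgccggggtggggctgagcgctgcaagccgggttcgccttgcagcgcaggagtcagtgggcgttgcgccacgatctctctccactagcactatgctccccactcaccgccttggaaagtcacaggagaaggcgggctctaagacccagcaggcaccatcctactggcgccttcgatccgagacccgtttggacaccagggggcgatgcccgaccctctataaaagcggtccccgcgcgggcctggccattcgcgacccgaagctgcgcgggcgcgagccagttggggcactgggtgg

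Motif matches in the promoter windows were few. RefSeq gave 12 windows for the 8 genes, and 5 motifs were searched on both strands in them and in all 32817 windows of the same length. ATTGAT was found in 2 of the 12, against 7.54% of all windows. For Foxa2 it began 213 bases upstream of the start shown, with none in the windows of its other starts. For Hnf4a it lay 59 to 54 bases upstream of the start shown, on the opposite strand, with none in the window of its other start. Which start was in use was not tested. The FOXA motif TGTTTAC was found in 1 of the 12, that of Foxa1, 141 to 135 bases upstream on the opposite strand, against 3.65% of all windows. The CEBP motif TTGCNNAA, held by 10.8% of all windows, was in 0 of the 12, as were the HNF4 motif CAAAGTCCA (0.475% of all windows) and the nuclear receptor direct repeat with a spacer of 1 base (0.0396%). No 2 matches overlapped, and a match describes letters in a window, not binding.

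Hnf4a lay at the top of the range of the livers or above it in the lines, although its difference passed the threshold against neither liver group. HNF4A keeps up the hepatocyte programme and is also made in bile duct precursors, gut and kidney epithelium. It stood at 10.95, 11.10 and 10.35 in AS lines 1, 2 and 3, against 7.80, 10.35 and 7.16 in KO livers and 8.84, 10.53 and 10.35 in WT livers. Lines 1 and 2 lay above every liver, while line 3 was level with KO liver 2 and WT liver 3. The difference was 2.36 over KO livers (SE 0.864, adjusted p = 0.121) and 0.89 over WT livers (SE 0.492, adjusted p = 0.244). Without KO liver 2, the KO liver richest in hepatocyte genes, the difference from KO livers was 3.32 at an adjusted p of 0.00625. This was the only call of Hnf4a over KO livers, 1 of 13 alternatives, among which the adjusted p reached 0.304. Over WT livers 0 of 13 passed.

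Nr1h4 showed a similar order with no overlap. It encodes FXR, which senses bile acids and restrains their synthesis. It stood at 9.51, 9.01 and 8.81 in AS lines 1, 2 and 3, against 6.75, 8.80 and 7.22 in KO livers and 7.27, 8.45 and 8.47 in WT livers. Line 3 cleared KO liver 2 by a margin of the second decimal only. The difference was 1.52 over KO livers (SE 0.564, adjusted p = 0.126) and 1.05 over WT livers (SE 0.381, adjusted p = 0.0972), so that neither passed. Without KO liver 2 the difference from KO livers was 2.12 at an adjusted p of 0.0129. This was the only call of Nr1h4 over KO livers, 1 of 13 alternatives, among which the adjusted p reached 0.302.

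Onecut1 and Prox1 did not separate the groups. Onecut1, whose product HNF6 acts in bile duct formation and in hepatocytes, was at 7.60, 7.19 and 6.99 in AS lines 1, 2 and 3, against 6.41, 8.28 and 6.52 in KO livers and 7.02, 7.30 and 7.31 in WT livers. Its difference was 0.19 over KO livers (SE 0.548, adjusted p = 0.852) and 0.05 over WT livers (SE 0.184, adjusted p = 0.869). Prox1, needed for hepatoblasts to spread and for lymphatic endothelial fate, was at 7.89, 9.24 and 8.29 in the lines, against 7.75, 9.08 and 7.44 in KO livers and 7.66, 8.63 and 8.42 in WT livers. Line 2, the highest of the 9 arrays for Prox1, was also the line with the highest hepatocyte gene mean, at 9.06 against 7.32 and 7.42 in lines 1 and 3. The difference was 0.38 over KO livers (SE 0.556, adjusted p = 0.692) and 0.24 over WT livers (SE 0.421, adjusted p = 0.721).

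Because PROX1 marks lymphatic endothelium, 14 other lymphatic genes were read beside it. Their summed log2 level was 90.1 to 95.5 in the lines, against 129.8 to 133.2 in KO livers and 131.0 to 132.9 in WT livers. Of the 14, 13 were called lower against KO livers and 12 against WT livers. No lymphatic gene was called higher, although 1 of the 14 had a higher mean in the lines in each comparison. Prox1 in the lines stood at liver level while the lymphatic genes as a list were far below it. Flt4 and Lyve1, high in livers (means of 12.58 and 12.36 in KO livers), are also genes of sinusoidal endothelium. Pdpn and Mmrn1 were low in livers, at means of 6.29 and 4.79 in KO livers and 6.52 and 4.67 in WT livers. The list thus does not separate lymphatic from sinusoidal endothelium. These 4 genes were chosen after their values were seen.

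**Figure D2:**
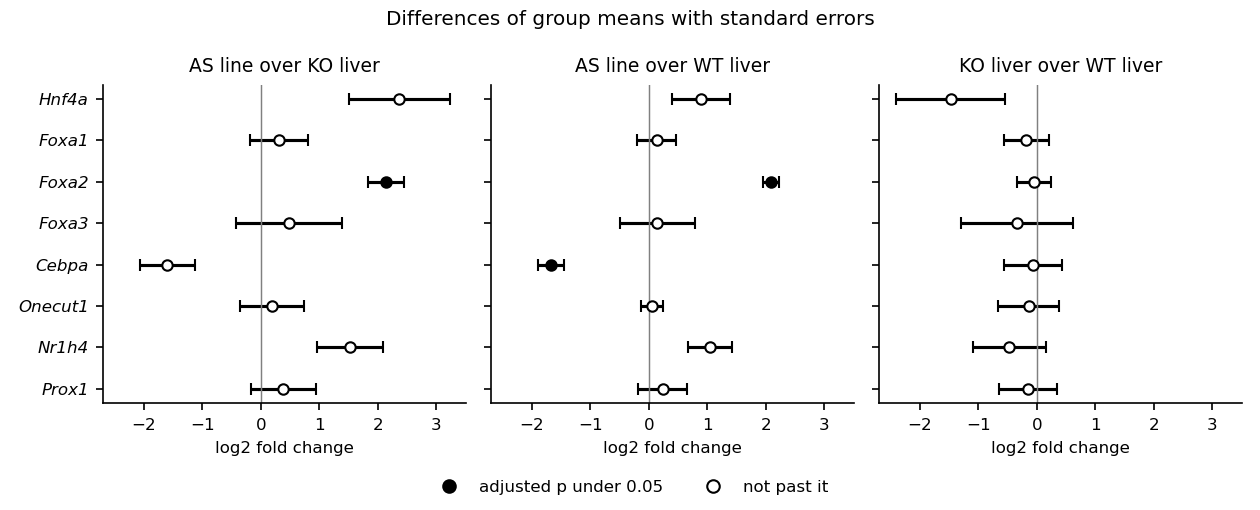
Differences of group means for the 8 factors (log2 fold change, horizontal axes) in AS lines over KO livers, AS lines over WT livers and KO livers over WT livers; whiskers are ± 1 SE and filled points passed an adjusted p of 0.05. Foxa2 passed in both comparisons of the lines and Cebpa in that with WT livers, and no factor passed between KO and WT livers.

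The 3 lines were not alike for every factor. The range over lines was 0.28 log2 units for Cebpa, 0.30 for Foxa2, 0.61 for Onecut1, 0.70 for Nr1h4 and 0.75 for Hnf4a. It was 1.27 for Foxa1, 1.34 for Foxa3 and 1.35 for Prox1. Line 1 was the highest line for Foxa3, Onecut1 and Nr1h4, line 2 for Hnf4a and Prox1, and line 3 for Foxa1, Foxa2 and Cebpa, although for Foxa2 lines 1 and 3 were level to 2 decimals. The mean of the 8 genes was 8.59, 8.50 and 8.31 in AS lines 1, 2 and 3, against 7.19, 8.97 and 7.07 in KO livers and 7.51, 8.46 and 8.33 in WT livers. Each line was thus above KO livers 1 and 3 and WT liver 1 in this mean and below KO liver 2. The 26 proliferation genes also varied among the lines, with means of 10.61, 7.63 and 8.73, and their part in the differences between lines was not tested.

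Between KO and WT livers, no factor passed the threshold. Limma called 0 of the 8 higher and 0 lower, as it called 0% of all 19938 genes, and 0 of the 8 had an unadjusted p under 0.05, against 22.5% of all genes. Over all genes 1949 were called without KO liver 2 and 60 without WT liver 1. All 8 log2 fold changes were negative, where 50.2% of all genes were negative and 49.8% positive, and the groups overlapped for each of the 8, where 30.3% of all genes did not overlap, 19.2% above and 11.1% below. The difference was -1.47 for Hnf4a (SE 0.937, adjusted p = 0.386) and -0.47 for Nr1h4 (SE 0.621, adjusted p = 0.655). It was -0.34 for Foxa3, -0.18 for Foxa1, -0.15 for Prox1, -0.14 for Onecut1, -0.07 for Cebpa and -0.05 for Foxa2, with adjusted p between 0.787 and 0.941. A p of this size does not show that the genotypes were alike, since the SE for Foxa3, at 0.965, was larger than the difference.

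For each of the 8 factors, the range within either genotype was larger than the difference of means between genotypes. The range over KO livers was 3.19 log2 units for Hnf4a, 3.15 for Foxa3 and 2.05 for Nr1h4, and the smallest was 1.05 for Foxa2. Over WT livers the ranges ran from 0.28 for Onecut1 to 1.97 for Foxa3. KO liver 2 was the highest KO liver for all 8 factors, an order held by 32.3% of all genes, and the highest of all 6 livers for 7 of them. Without KO liver 2 the difference of Onecut1 was -0.75 at an adjusted p of 0.0323, and that of Hnf4a was -2.43 at an adjusted p of 0.0704.

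All 8 factors split the livers as the hepatocyte genes did. For each factor KO liver 2 and WT livers 2 and 3, the livers richest in hepatocyte genes, lay above KO livers 1 and 3 and WT liver 1. That order was held by 10.9% of all genes. Within the poorer set the order of the hepatocyte genes was not always kept. Cebpa was at 8.99 in KO liver 1 and 9.27 in KO liver 3, although KO liver 1 was richer in hepatocyte genes. The gap between the sets was 1.50 log2 units for Hnf4a, 1.46 for Foxa3 and 1.18 for Nr1h4. It was 0.67 for Cebpa, 0.67 for Prox1, 0.28 for Onecut1, 0.23 for Foxa1 and 0.21 for Foxa2. The summed log2 level of the 31 hepatocyte genes was 268.8 to 380.8 in KO livers and 340.4 to 376.0 in WT livers. With the hepatocyte mean as a covariate, the difference between KO and WT livers was -0.07 for Hnf4a and positive for the other 7. These ran from 0.33 for Nr1h4 to 1.08 for Foxa3, and none passed. The 31 genes include genes listed as HNF4A and CEBPA targets. Such a covariate can take up a difference of the factors themselves, so that the fit cannot tell hepatocyte content from factor level. The 18 T and NK cell genes averaged 6.72, 6.80 and 6.91 in KO livers 1, 2 and 3, against 6.71, 8.68 and 8.62 in WT livers 1, 2 and 3, with summed levels of 120.9 to 124.4 and 120.8 to 156.2. All 26 proliferation genes had higher means in KO than in WT livers (median 1.37), at list means of 9.24, 8.02 and 8.89 in KO livers 1, 2 and 3, against 7.28, 7.39 and 7.49 in WT livers 1, 2 and 3. Limma called 0 of the 26, and 22 higher without KO liver 2. The summed proliferation level was 208.5 to 240.2 in KO livers and 189.3 to 194.8 in WT livers. KO livers 1 and 3, low in the factors, were the highest livers for it. The part of proliferation genes, of T and NK cell genes and of the Y-linked difference of KO liver 3 in these values was not tested.

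**Figure D3:**
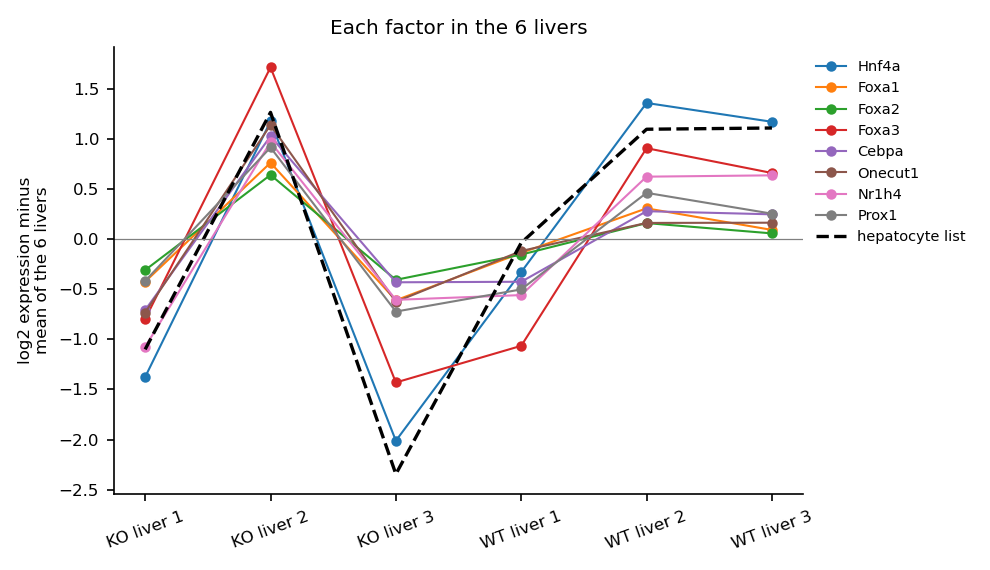
Each factor in the 6 livers (vertical axis, log2 expression minus the mean of that gene over the 6 livers), with KO livers on the left and WT livers on the right; the dashed line is the mean of 31 hepatocyte genes and lines only join points of 1 gene. KO liver 2 and WT livers 2 and 3 lie above the other 3 livers for all 8 factors, as for the hepatocyte list.

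Most genes of mature hepatocytes, many of them under the control of these factors, had lower means in the lines than in the livers. Of 31 hepatocyte genes, 0 were called higher and 5 lower in lines against KO livers (median -2.30), and 0 higher and 21 lower against WT livers (median -3.97). The hepatocyte means of 7.32, 9.06 and 7.42 in the lines compare with 8.67 to 12.28 in KO livers and 10.98 to 12.13 in WT livers. The count against KO livers depended on single arrays: it was 8 lower and 1 higher without KO liver 2 (median -1.11), and 2 lower without KO liver 1, AS line 1 or AS line 3. Cyp2e1, a cytochrome P450 of hepatocytes around the central vein, was at 5.23, 5.58 and 5.46 in the lines, against 11.78, 13.56 and 11.03 in KO livers and 12.78, 13.46 and 13.36 in WT livers. It fell by 6.70 on the log2 scale against KO livers (SE 0.654, adjusted p = 0.00239) and fell by 7.77 against WT livers (SE 0.210, adjusted p = 1.78e-05).

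The plasma protein genes were not all low. Alb, which encodes albumin, was at 12.31, 13.67 and 12.82 in AS lines 1, 2 and 3, against 13.52, 13.86 and 12.14 in KO livers and 13.84, 13.87 and 13.96 in WT livers. The lines overlapped the KO livers and lay below the WT livers. The difference was -0.24 over KO livers (SE 0.571, adjusted p = 0.819) and -0.95 over WT livers (SE 0.343, adjusted p = 0.0932). The difference from WT livers was called without AS line 2 (adjusted p = 0.00770) and with 75th percentile scaling (adjusted p = 0.0383). Alb was chosen after its values were seen.

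Of 19 HNF4A target genes, 0 were called higher and 3 lower in lines against KO livers (median -2.18), and 0 higher and 14 lower against WT livers (median -2.95). Apoa2, an apolipoprotein of high-density lipoprotein, was at 6.70, 7.57 and 6.84 in the lines, against 11.95, 13.51 and 10.63 in KO livers and 12.74, 13.45 and 13.44 in WT livers. It fell by 4.995 against KO livers (SE 0.755, adjusted p = 0.00938) and fell by 6.17 against WT livers (SE 0.307, adjusted p = 0.000125) on the log2 scale. The list counts against KO livers were 5 lower and 1 higher without KO liver 2 (median -1.08), and 1 lower without KO liver 1, AS line 1 or AS line 3. Against WT livers they were 9 and 8 lower without WT liver 2 or WT liver 3. With all 9 arrays in one fit they were 9 lower against WT livers. Of the 19 differences, 4 were positive against KO livers and 2 against WT livers. Apob, the main protein of very-low-density lipoprotein, which was chosen after its values were seen, was at 11.33, 11.76 and 11.81 in the lines, against 9.98, 12.43 and 8.48 in KO livers and 10.53, 12.02 and 12.03 in WT livers. The lines lay within the range of the livers, and Apob was not called in either comparison.

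Of 17 FXR target genes, 1 was called higher and 2 lower against KO livers (median -1.11), and 1 higher and 8 lower against WT livers (median -2.09). The list gives no direction and includes genes of bile acid synthesis, which FXR restrains. Its counts and medians therefore do not measure FXR activity. Against KO livers these counts were 2 and 4 without KO liver 2 (median -0.21), 0 and 1 without KO liver 1, AS line 2 or AS line 3, 0 and 2 without KO liver 3 (median -1.70), and 1 and 1 without AS line 1. With dim genes left out 9 FXR targets remained to be tested, and their median against KO livers was 0.17, with 5 positive and 4 negative. Against WT livers 0 were called higher without any 1 WT liver, AS line 2 or AS line 3, and 0 higher and 5 lower with all 9 arrays in one fit. Slc10a1, the importer of bile acids from blood, is listed as a target of HNF4A as well as FXR, without a direction. Its level was 5.32, 6.45 and 6.04 in the lines, against 9.98, 12.51 and 8.81 in KO livers and 11.64, 12.33 and 12.21 in WT livers. It fell by 4.50 on the log2 scale against KO livers (SE 0.982, adjusted p = 0.0293) and fell by 6.12 against WT livers (SE 0.337, adjusted p = 0.000175). The call against KO livers was lost without KO liver 1 (adjusted p = 0.0868) or any 1 of the lines (0.0803, 0.0636 and 0.0761). Pltp, a phospholipid transfer protein, was at 7.91, 7.38 and 7.58 in the lines, against 11.27, 11.99 and 11.15 in KO livers and 11.54, 11.07 and 10.82 in WT livers. It fell by 3.85 on the log2 scale against KO livers (SE 0.268, adjusted p = 0.000751) and fell by 3.52 against WT livers (SE 0.229, adjusted p = 0.000323).

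The FXR target called higher was Sdc1, a cell surface heparan sulfate proteoglycan that epithelia also carry. It was at 10.12, 10.98 and 11.23 in the lines, against 7.69, 9.51 and 7.91 in KO livers and 8.35, 9.30 and 9.72 in WT livers. The difference was 2.41 over KO livers (SE 0.576, adjusted p = 0.0386) and 1.66 over WT livers (SE 0.448, adjusted p = 0.0414). The call was lost without any 1 of 4 arrays against KO livers, KO livers 1 and 3 and AS lines 2 and 3, at an adjusted p between 0.102 and 0.128. Against WT livers it was lost without any 1 WT liver or AS line 2 or 3, at an adjusted p between 0.0531 and 0.112, and with all 9 arrays in one fit (adjusted p = 0.0564). Nr0b2 encodes the repressor SHP and is an FXR target through which bile acid synthesis is restrained. It was at 7.27, 7.91 and 7.60 in the lines, against 7.04, 9.09 and 6.15 in KO livers and 7.81, 8.58 and 9.12 in WT livers. Its difference was 0.17 over KO livers (adjusted p = 0.913) and -0.91 over WT livers (adjusted p = 0.120), and without WT liver 1 the second was called at -1.26 (adjusted p = 0.0365), as it was with 75th percentile scaling (adjusted p = 0.0346). Nr0b2 and Sdc1 were chosen after their values were seen.

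Of 10 CEBPA target genes, 0 were called higher and 3 lower against KO livers (median -2.12), and 0 higher and 7 lower against WT livers (median -3.50). The hepatocyte, HNF4A and CEBPA lists share genes, so that their counts are not independent of each other. Tat is in each of these lists, and Apoa2 is in the hepatocyte and HNF4A lists. Against KO livers the count was 1 lower without KO liver 1 or any 1 of the lines, and the median was -1.31 without KO liver 2. The 3 called against KO livers were Tat, Csf3r, the receptor for granulocyte colony-stimulating factor, and Elane, the elastase of neutrophils, so that 2 of them are genes of myeloid blood cells, named after their values were seen. Beside them, 15 of 15 Kupffer cell genes fell in the lines against both liver groups, with summed levels of 93.7 to 96.1 in the lines, 166.8 to 176.4 in KO livers and 165.95 to 175.2 in WT livers. Of 18 T and NK cell genes 15 were called lower against KO livers and 9 against WT livers, with summed levels of 98.5 to 102.7 in the lines. The part of these blood cells in the CEBPA target counts was not tested. Tat, the first enzyme of tyrosine breakdown, was at 6.00, 6.01 and 5.81 in the lines, against 9.14, 12.22 and 8.93 in KO livers and 11.46, 12.51 and 12.26 in WT livers. It fell by 4.15 on the log2 scale against KO livers (SE 0.919, adjusted p = 0.0305) and fell by 6.14 against WT livers (SE 0.280, adjusted p = 9.22e-05). The call against KO livers was lost without any 1 of the lines, KO liver 1 or KO liver 3, at an adjusted p between 0.0519 and 0.0835. Between KO and WT livers, limma called 0 genes of these 3 target lists, with medians of -1.18, -0.98 and -1.50 for HNF4A, FXR and CEBPA targets. It called 4, 1 and 4 of them lower without KO liver 2, at medians of -2.18, -1.88 and -2.66. Without KO liver 3 it called 0, at medians of -0.41, -0.39 and -0.64.

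**Figure D4:**
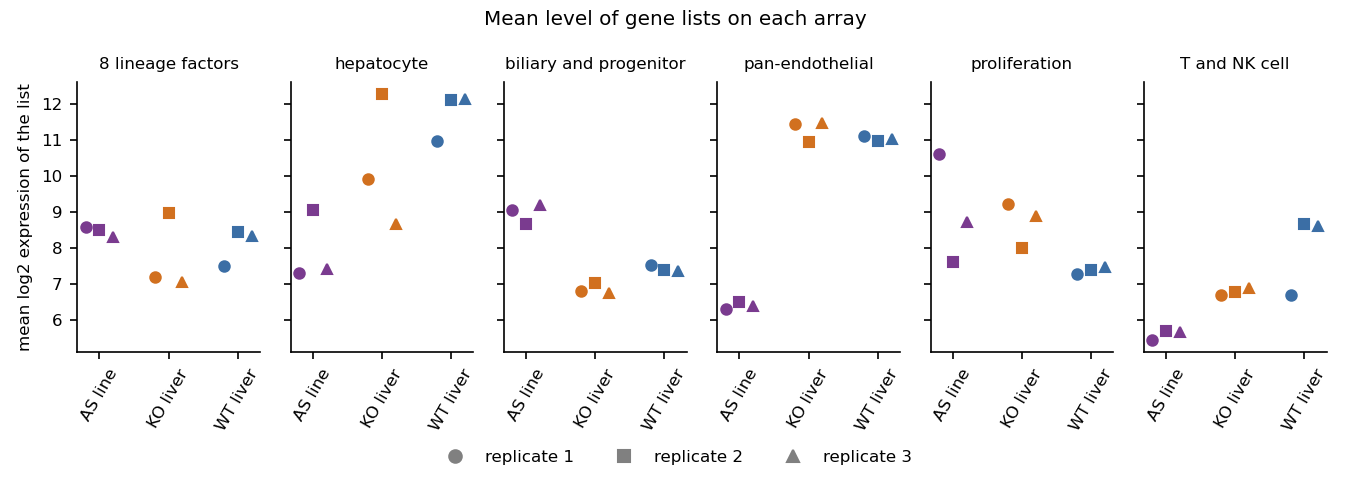
Mean log2 expression (vertical axis) of the 8 factors and of 5 gene lists on each array, for AS lines, KO livers and WT livers; each point is 1 array and its shape gives the replicate number. The lines overlap the livers for the 8 factors, lie below every WT liver for hepatocyte genes, above every liver for biliary and progenitor genes and far below every liver for pan-endothelial genes.

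Biliary and progenitor markers were a list with a higher mean in every line than in any liver. Their mean was 9.05, 8.68 and 9.19 in AS lines 1, 2 and 3, against 6.76 to 7.02 in KO livers and 7.38 to 7.54 in WT livers, and their summed log2 level was 173.6 to 183.8 in the lines, 135.2 to 140.5 in KO livers and 147.5 to 150.8 in WT livers. Of 20 measured, 11 were called higher and 1 lower against KO livers (median 2.93), and 12 higher and 2 lower against WT livers (median 2.18), the lower ones numbering 1 without any 1 WT liver. Krt19 differed by 6.24 over KO livers (SE 0.115, adjusted p = 2.44e-05) and 5.52 over WT livers (SE 0.178, adjusted p = 2.75e-05). The part of these markers in the levels of Hnf4a and Foxa2 was not tested. Proliferation genes also had higher means in each line (10.61, 7.63 and 8.73) than in WT livers (7.28 to 7.49), but not than in every KO liver (8.02 to 9.24).

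Other transcription factors of liver split in both directions. Of 36 measured, 6 were called higher and 7 lower in lines against KO livers (median -0.05), and 8 higher and 8 lower against WT livers (median -0.35). With 75th percentile scaling the counts against WT livers were 6 higher and 12 lower. Against KO livers they were 3 higher and 3 lower without KO liver 1 or KO liver 3, and 5 higher and 4 lower without AS line 1. Against WT livers they were 5 and 7 without WT liver 1, 5 and 5 without WT liver 2, 4 and 4 without WT liver 3, and 5 and 9 without AS line 2. Their median against WT livers was 0.01 without AS line 1, -0.10 with dim genes left out and -0.56 with 75th percentile scaling.

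Among those called higher, Ppargc1a, the coactivator that works with HNF4A in fasting, was at 9.61, 9.57 and 9.05 in the lines, against 5.95, 6.79 and 5.73 in KO livers and 6.79, 6.62 and 6.39 in WT livers. It rose by 3.25 over KO livers (SE 0.323, adjusted p = 0.00251) and 2.81 over WT livers (SE 0.194, adjusted p = 0.000401). Onecut2, the paralogue of Onecut1, was at 10.26, 10.43 and 11.50 in the lines, against 7.23, 9.30 and 6.72 in KO livers and 7.93, 8.57 and 8.36 in WT livers. Every line lay above every liver, by 2.98 over KO livers (SE 0.757, adjusted p = 0.0458) and 2.45 over WT livers (SE 0.368, adjusted p = 0.00594). The call over KO livers was lost without any 1 of the lines, KO liver 1 or KO liver 3, at an adjusted p between 0.0810 and 0.151. Gata6, an endoderm zinc finger factor, rose by 2.17 over KO livers (SE 0.261, adjusted p = 0.00459) and 1.98 over WT livers (SE 0.193, adjusted p = 0.00133). Hhex, a homeodomain factor of the liver bud that endothelium also carries, rose by 0.97 over KO livers (SE 0.154, adjusted p = 0.0108) and 1.70 over WT livers (SE 0.140, adjusted p = 0.000749). Onecut2, Gata6 and Hhex were chosen after their values were seen.

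Among those called lower, Nr5a2, a nuclear receptor that controls bile acid synthesis with FXR and SHP, was at 5.30, 6.85 and 6.21 in the lines, against 9.65, 9.54 and 9.50 in KO livers and 9.01, 9.32 and 9.43 in WT livers. It fell by 3.45 on the log2 scale against KO livers (SE 0.393, adjusted p = 0.00389) and fell by 3.14 against WT livers (SE 0.397, adjusted p = 0.00326). Gata4, an endoderm factor that in adult liver is also made by sinusoidal endothelium, was at 8.18, 7.62 and 8.28 in the lines, against 11.43, 10.90 and 11.32 in KO livers and 11.13, 10.66 and 10.82 in WT livers. It fell by 3.19 against KO livers (SE 0.232, adjusted p = 0.000876) and fell by 2.84 against WT livers (SE 0.219, adjusted p = 0.000571). The 18 sinusoidal endothelial genes, 18 of which fell in both comparisons, had summed levels of 117.2 to 120.9 in the lines, against 217.2 to 220.9 in KO livers and 213.9 to 218.5 in WT livers, and their part in the values of Gata4 was not tested.

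**Figure D5:**
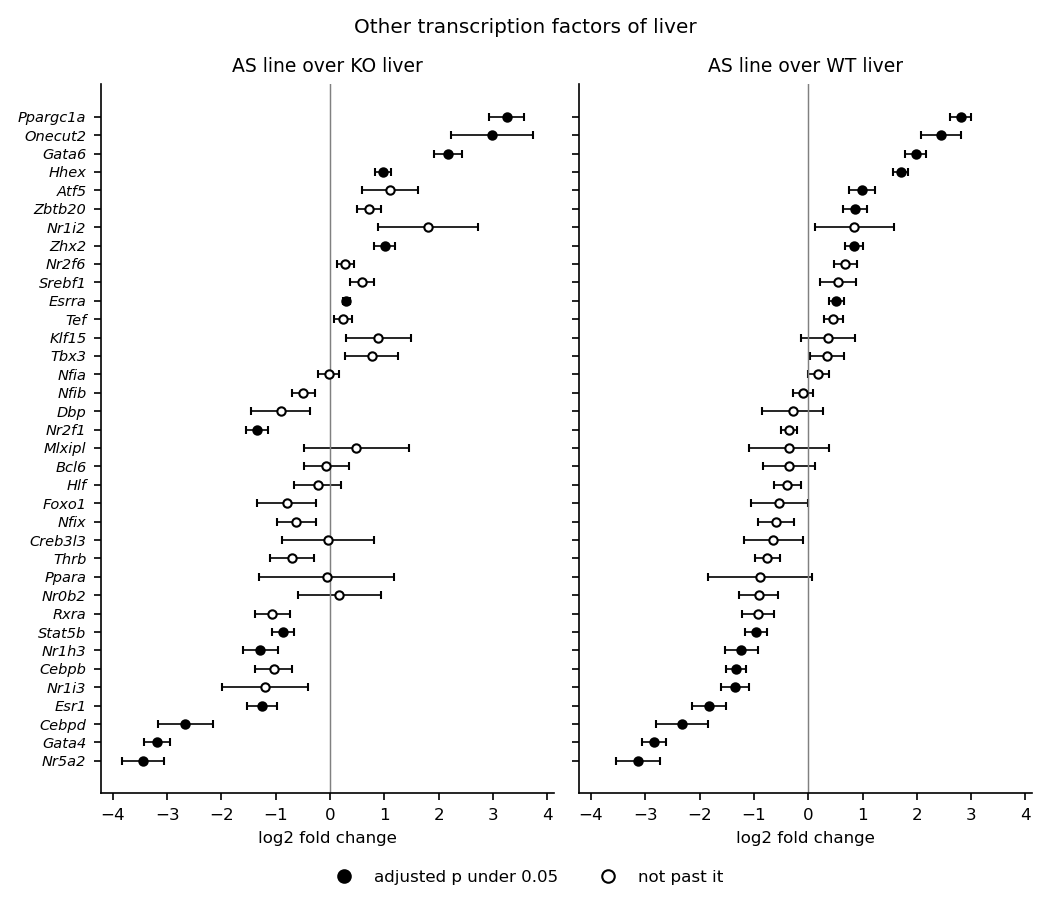
Log2 fold change (horizontal axes) of 36 other liver transcription factors (rows, ordered by the difference from WT livers) in AS lines over KO livers and AS lines over WT livers; whiskers are ± 1 SE and filled points passed an adjusted p of 0.05. Ppargc1a, Onecut2 and Gata6 lie furthest to the right and Nr5a2, Gata4 and Cebpd furthest to the left in both panels.

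The patterns of the 8 factors over the 9 arrays were compared with each other and with those of 17132 genes, as the root mean square of the difference in log2 values after each gene was centred on its own mean. This is a description over arrays that share their groups, and no test was made. Among the factors, Foxa1 and Onecut1 were closest to each other, at 0.41 log2 units, followed by Onecut1 and Prox1 at 0.47 and by Foxa2 and Nr1h4 at 0.59. Foxa2 and Cebpa were the furthest apart, at 1.78. Hnf4a was nearest to Nipsnap1 (0.14), Pcbd1 (0.31) and Stard10 (0.33). Foxa2 was nearest to Hspb6 (0.12), Prepl (0.22) and Rassf7 (0.22), which all stood above the 6 livers in every line. Cebpa was nearest to Trem1 (0.21), Nxpe2 (0.22) and Tgm1 (0.23), which stood below the 6 livers in every line. Nr1h4 was nearest to Ppa1 (0.21), Fdft1 (0.23), which encodes squalene synthase, and Pir (0.23). Prox1 was nearest to Slc25a22 (0.13), Fads6 (0.14) and Hsdl2 (0.16), Onecut1 to Rab30 (0.20), Foxa1 to Rcan2 (0.13) and Foxa3 to Cdhr5 (0.35).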

How the data were processed

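Total RNA of 9 samples was hybridised to Affymetrix mouse whole-transcript arrays. The authors deposited log2 expression values, which the submitters' processing notes link to RMA and oligo. RMA corrects background, normalizes between arrays and summarises probes, and the version of either was not stated in the sources used here. Depth has no meaning for arrays, and their number limits the precision.

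The table holds 35556 probe sets. By the platform annotation 21789 name 1 gene, 1621 several and 12146 none. Each of 19938 genes was represented by its probe set of highest mean over the 9 arrays. RefSeq held the identifiers of 21698 of the probe sets with 1 gene, and no symbol changed. No deposited detection call was used, so that a low value is not an absence. Limma 3.58.1 in R 4.3.3 (lmFit, eBayes, 2-sided, checked on simulated data) was fitted to the 6 arrays of each comparison, with p-values adjusted over all genes after Benjamini and Hochberg and called at 0.05. All adjusted p-values are limma's. The Notch1 permutation test used scipy 1.17.1, and figures matplotlib 3.10.9.

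The labels call the samples biological replicates, and replicate numbers are not stated to pair them. The genes named are the 8 factors, Notch1, the 3 genes of largest change in a list and, for each factor, the 3 genes of nearest pattern, left out being predicted genes, small RNAs, and olfactory, vomeronasal and antigen receptor genes. Genes outside that rule are marked in the text. The members and lists were chosen with earlier results of these data known. Alternatives were a least change of 2-fold, the replicate number as a block, an intensity trend with robust variances, a joint fit to all 9 arrays, 75th percentile scaling, averaged probe sets where a gene has several, dim genes left out, the hepatocyte mean as a covariate, and each array left out.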

Additional observations from a re-analysis of the deposited data

How the results depend on the processing

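The fits rest on 3 arrays a group. Leaving out 1 array at a time gave 0 to 1949 genes called between KO and WT livers, 2281 to 4048 between AS lines and KO livers and 3397 to 5435 between AS lines and WT livers. It gave 0 to 1 factor lower in KO than in WT livers, and 1 to 3 factors higher and 0 to 1 lower in AS lines than in KO livers. Without KO liver 2, Hnf4a (3.32, adjusted p = 0.00625), Nr1h4 (2.12, 0.0129) and Cebpa (-1.07, 0.0148) passed between AS lines and KO livers, and Onecut1 (-0.75, 0.0323) passed between KO and WT livers. The Notch1 difference between KO and WT livers ranged from -3.33 to -2.84. Between KO and WT livers the log2 fold change of small effects changed sign, with ranges of -0.61 to 0.0816 for Foxa1, -0.38 to 0.15 for Foxa2, -1.28 to 0.29 for Foxa3, -0.60 to 0.26 for Cebpa, -0.75 to 0.19 for Onecut1 and -0.64 to 0.18 for Prox1. For AS lines over KO livers the ranges were -0.0041 to 0.74 for Foxa1, -0.15 to 1.43 for Foxa3, -0.14 to 0.80 for Onecut1, -0.47 to 1.00 for Nr0b2 and -0.76 to 0.10 for Alb. For AS lines over WT livers they were -0.18 to 0.45 for Foxa1, -0.47 to 0.58 for Foxa3, -0.12 to 0.19 for Onecut1 and -0.15 to 0.53 for Prox1. With the hepatocyte covariate the differences between KO and WT livers were 0.38 for Foxa1, 0.38 for Foxa2, 1.08 for Foxa3, 0.60 for Cebpa, 0.58 for Onecut1, 0.33 for Nr1h4 and 0.58 for Prox1, and 1 gene of all was called, against 2 genes with all 9 arrays in one fit. With 75th percentile scaling the median of all genes between AS lines and WT livers moved to -0.19, beside 0.02 as deposited, and Foxa1, Foxa3 and Onecut1 stood at -0.0796, -0.0683 and -0.16. Between KO and WT livers that scaling moved the median to -0.18, beside -0.0011. A least change of 2-fold left 2638 genes called between AS lines and KO livers and 3492 between AS lines and WT livers, since it only adds a condition, and ended the call of Hhex over KO livers (0.97). Cebpa was the 1 factor called lower in AS lines than in KO livers with all 9 arrays in one fit, with dim genes left out and with 75th percentile scaling. The cause of the other changes was not tested. Cebpa fell against WT livers under all 13 alternatives, with a log2 fold change of -1.90 to -1.55 at an adjusted p between 0.000517 and 0.0199. Nr1h4 over WT livers passed under 0 of 13 (0.65 to 1.25, adjusted p between 0.0514 and 0.221). Of the 16 other named genes called in each comparison of the lines, 10 kept their call under every alternative against KO livers and 14 against WT livers. Same-numbered arrays did not deviate together throughout: their correlations were 0.31, 0.43 and -0.39 between KO and WT livers, 0.24, 0.34 and 0.07 between AS lines and KO livers, and 0.04, 0.17 and -0.16 between AS lines and WT livers. With the replicate number as a block, 0, 3426 and 4494 genes were called in these comparisons, 9 rather than 5 hepatocyte genes were lower in AS lines than in KO livers, and among the calls of named genes that of Onecut2 over KO livers was lost (adjusted p = 0.0948).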
